A study of Homo sapiens with 3 samples.

Results

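The subject is miR-31, a microRNA (miRNA) whose hairpin precursor gives the 2 mature products hsa-miR-31-5p and hsa-miR-31-3p, called miR-31-5p and miR-31-3p from here on. These arms were taken by name from the deposited tables, where they are 2 of 2588 mature miRNAs, each listed at 1 locus. They were selected on their measured reads in these libraries, high in ES-2 and near absent in C643 and Huh-7, so that contrast is a description here and carries no test. Small RNA was sequenced from parental, untreated cells of 3 human cancer lines, harvested 48 h after seeding: Huh-7, a hepatocellular carcinoma line, ES-2 from an ovarian cancer and C643 from an anaplastic thyroid carcinoma. A single library (1 per line) was sequenced, made from 50 ng of total RNA, so no difference between lines has a replicate check.

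MiRNAs guide Argonaute proteins to messenger RNAs, mainly through the seed, bases 2 to 8 from the 5′ end of the mature strand, and repress them. Usually 1 arm of a precursor is kept while the other is degraded. MIR31 is encoded in the long non-coding RNA gene MIR31HG on the short arm of chromosome 9, in a region that many tumors delete together with CDKN2A, which encodes the cell cycle inhibitors p16INK4a and p14ARF. In cancer, miR-31 is known as context dependent, being lost in some tumor types and elevated in others.

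The mature sequence of the 5p arm is shown first because its seed sets which messages it can pair with. Capitals mark the seed, and the sequence is that of RefSeq on GRCh38.p14, where it lies at chr9:21512158-21512178 on the minus strand.
miR-31-5p: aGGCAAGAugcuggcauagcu

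The strand is 21 bases long, has a GC content of 52.4% and begins with A, as do 27.6% of the 2370 mature names in the RefSeq table. No other mature miRNA of that table has the seed GGCAAGA at bases 2 to 8. Only miR-6809-5p shares bases 2 to 7, and it had 0 reads in each of the 3 libraries. The letters GGCAAGA lie at other positions in 2 mature miRNAs, miR-4645-5p and miR-6838-5p, which had no more than 2 reads in any library. Reads of miR-31-5p were therefore the only ones with this seed in the libraries, as far as the 2281 of 2588 deposited miRNAs with a RefSeq sequence show.

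The precursor MIR31 is 71 bases long and lies on chromosome 9 at 21512115 to 21512185 on the minus strand (GRCh38, GENCODE version 29). It falls inside MIR31HG, which spans 21455642 to 21559669 on the same strand. None of the 4 exons of MIR31HG overlaps it, and it lies in the intron between exons 1 and 2, 47.5 kb from the start of the host gene. On the side of higher coordinates lie MTAP, which encodes an enzyme of methionine salvage, and CDKN2A. Their nearer ends are 290.4 kb and 455.6 kb away, the latter being the 3′ end of CDKN2A, a gene on the minus strand. On the other side lies a cluster of type I interferon genes. IFNE, an interferon of epithelia, overlaps MIR31HG and ends 29.8 kb from MIR31. Of 22 protein-coding genes within 500 kb of MIR31, 16 carry an interferon name. None of these messages was measured here, since the libraries count mature miRNAs, so the data give no copy number or transcript level for MIR31HG, MTAP or CDKN2A.

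**Figure D1:**
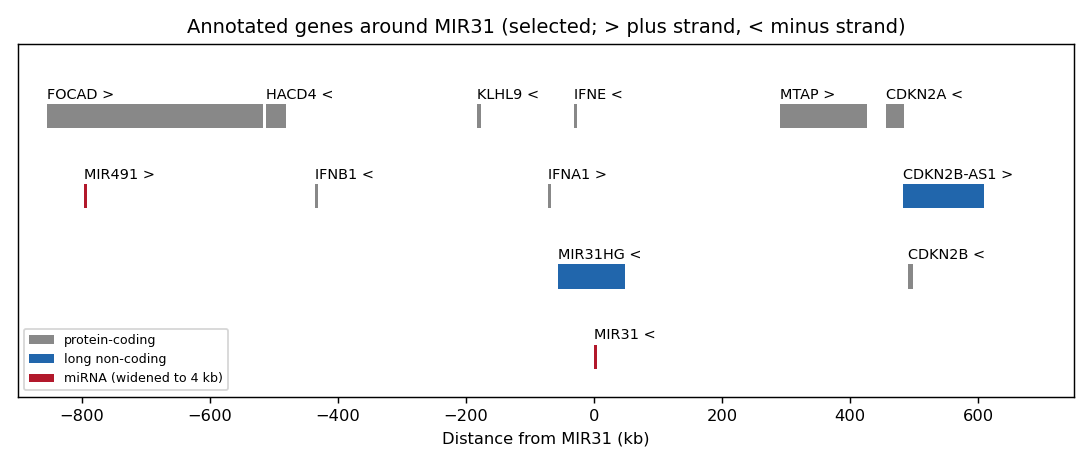
Map of selected annotated genes around MIR31 (GENCODE version 29), with the distance from MIR31 in kb on the x axis and bars to scale except the 2 miRNA precursors, drawn 4 kb wide. MIR31 sits inside MIR31HG, between the interferon genes on the left and MTAP with CDKN2A on the right, and MIR491 inside FOCAD is the nearest miRNA precursor listed.

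The miRNA reads of a library, recovered as whole reads from the deposited values, numbered 1663181 for ES-2, 2173587 for Huh-7 and 8183100 for C643. Levels are given in RPM, reads per 1000000 of these. By the limit of 3 reads, a miRNA without a read could still reach 1.80 RPM in ES-2, 1.38 in Huh-7 and 0.367 in C643, and such limits and all intervals cover counting error only. As a check of the labels, the 3 hepatocyte miRNAs (miR-122-5p, miR-122-3p and miR-885-5p) took 13.8% of the reads from Huh-7, 0.00595% from C643 and 0.000361% from ES-2. No miRNA was used as a defining marker of thyroid or ovarian cells. Muscle miRNAs had at most 28 reads in any library.

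miR-31-5p was abundant in ES-2 only. It had 4574 reads in ES-2, against 14 in C643 and 2 in Huh-7. ES-2 thus had 2750 RPM (Wilson 95% CI 2672 to 2831), C643 1.71 RPM (1.02 to 2.87) and Huh-7 0.920 RPM (0.252 to 3.36). ES-2 stood far above both other lines, while the intervals of C643 and Huh-7 overlapped. In deposited units the value was 3175 in ES-2, 1.64 in C643 and 0.563 in Huh-7.

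miR-31-3p, the arm usually treated as the passenger strand, was seen in ES-2 only, with 20 reads there and 0 in C643 and Huh-7. Its level in ES-2 was 12.0 RPM (95% CI 7.78 to 18.6), or 13.9 in deposited units. At the limit of 3 reads the 2 zeros correspond to 0.367 RPM in C643 and 1.38 in Huh-7, and their Wilson upper bounds are 0.469 and 1.77. ES-2 therefore lay above what a missing read could hide in either line.

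**Figure D2:**
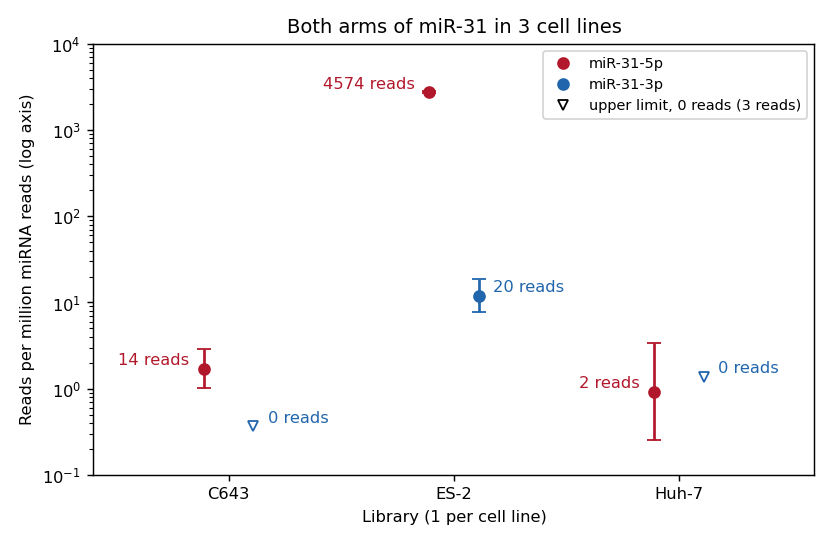
RPM, reads per 1000000 miRNA reads (log axis), of miR-31-5p (red) and miR-31-3p (blue) in the single library of each line, with Wilson 95% intervals and the number of reads beside each point. Open triangles mark the limit of 3 reads where an arm had 0 reads, and ES-2 stands above the other libraries for both arms.

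Set against Huh-7, which shares a deposited table with it, ES-2 had 5638 times as much miR-31-5p on the deposited scale (exact 95% interval 1560 to 46572). The width of this interval comes from the 2 reads in Huh-7. By share of the library total, which no factor between libraries can change, the ratio was 2989 (827 to 24687). For miR-31-3p, ES-2 stood 16.4-fold above 3 reads in Huh-7 on the deposited scale and 8.71-fold by share. The counting error of the 20 reads in ES-2 is left out of these ratios, so they are not lower limits of an interval.

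Against C643, whose values lie in a separate table that may have been normalized on its own, miR-31-5p was 1935-fold higher in ES-2 (1152 to 3542). By share it was 1607-fold higher (957 to 2943). miR-31-3p in ES-2 stood 39.5-fold above 3 reads in C643 on the deposited scale and 32.8-fold by share. These ratios too leave out the counting error of ES-2. Between C643 and Huh-7 no difference was detectable: the share of miR-31-5p in C643 was 1.86 times that in Huh-7, with an interval of 0.427 to 16.9. The order of the lines was thus ES-2 far ahead, then C643 and Huh-7, which did not differ beyond counting error.

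The background of these contrasts was taken over all miRNAs at a deposited value of 10 or more in either library, on the log2(value + 1) scale, a scale that makes the change of low miRNAs look smaller. A total of 76 miRNAs out of 390 (19.5%) were 4-fold or more above Huh-7 in ES-2, and 108 (27.7%) were so in Huh-7. Shares move the log2 ratio of this pair by 0.92 before the pseudocount is added. With the limit of 10 then applied to RPM, the numbers by share were 65 and 181, and may not be of the same 390. Both arms of miR-31 were among the 76, with log2 differences of 10.99 for the 5p arm and 3.90 for the 3p arm, while the median of all 390 was -0.54. In the pair of ES-2 and C643, 38 of 351 (10.8%) were 4-fold or more above in ES-2 and 54 (15.4%) in C643, with a median of -0.07, and the arms stood at 10.23 and 3.90. With a pseudocount of 10 in place of 1, miR-31-3p fell to 1.26 in both pairs, short of 4-fold. In the pair of C643 and Huh-7, neither arm reached the limit of 10, and of 399 miRNAs compared, 22.6% were 4-fold or more above in C643 and 25.1% in Huh-7 (90 and 100, or 77 and 157 by share). Both arms passed the limit of 10 through ES-2 alone, and since this contrast chose them, nothing is read from the count. An exact binomial test on the reads, which compares the ES-2 and Huh-7 libraries and not the lines, called 34.4% of the 390 higher in ES-2 with effective library sizes and 25.6% with library totals.

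**Figure D3:**
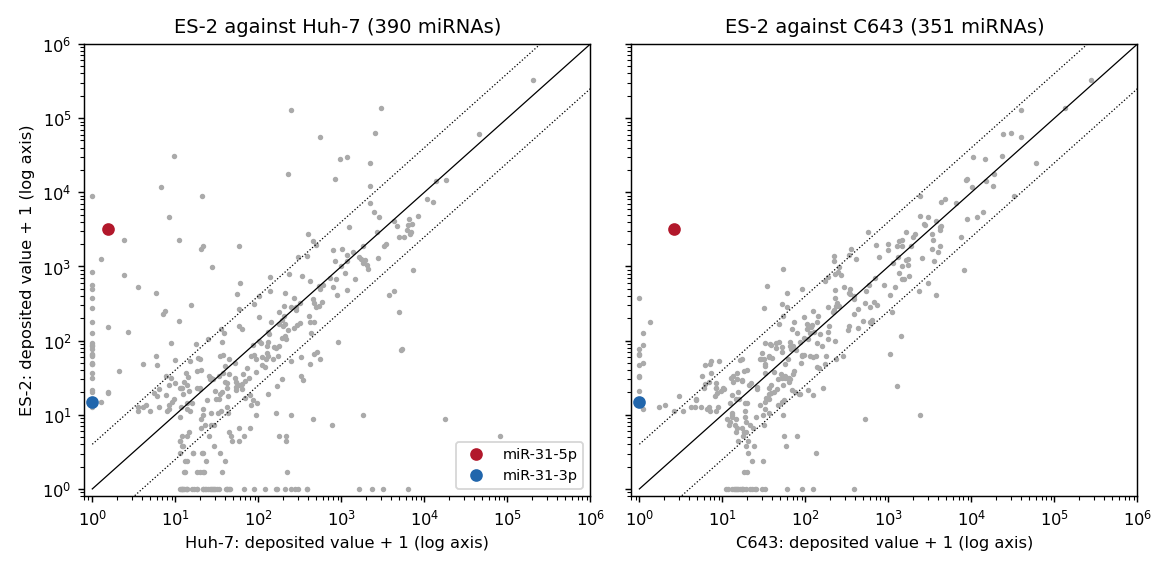
Deposited value + 1 in ES-2 (y axis) against Huh-7 (left, 390 miRNAs) and C643 (right, 351 miRNAs), both axes logarithmic, with each grey point a miRNA at 10 or more in either library. The solid line marks equality and the dotted lines 4-fold, and miR-31-5p (red) lies at the upper left of both panels, while miR-31-3p (blue) is at 0 reads in both other lines.

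The size of the contrast that chose miR-31-5p was set beside that of the other abundant miRNAs of ES-2 as a description only. Of 74 miRNAs with 1000 or more reads in ES-2, none had 3 or fewer reads in C643. The share in ES-2 was divided by the larger of the shares in C643 and Huh-7, with 3 reads as the least count, a measure chosen after the values had been seen. miR-31-5p gave 1607, and the next of the 74, miR-29b-1-5p, gave 3.23. When miRNAs with 100 or more reads in ES-2 were included, the next was miR-142-3p with 236, and 6 of 164 reached 10.

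The miRNAs that were also abundant in ES-2 and near 0 in Huh-7 were not low in C643. Besides miR-31-5p, 3 of the 74 had 3 or fewer reads in Huh-7. miR-155-5p, known from activated immune cells and several tumors, had 12992 reads in ES-2, 20326 in C643 and 0 in Huh-7. miR-584-5p had 1815, 3464 and 1 reads in the same order. miR-361-5p had 1196, 2090 and 0.

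Within ES-2, miR-31-5p held 0.275% of miRNA reads (95% CI 0.267 to 0.283) and ranked 32 of 608 miRNAs with a read. miR-21-5p, the miRNA the study set out to inhibit, had 469309 reads and exceeded it 103-fold. miR-7-5p, the next miRNA above, had 4941 reads summed over its loci, of which miR-31-5p reached 0.926 (exact 95% interval 0.889 to 0.964). The chromosome 9 locus of miR-7-5p alone held 1684 reads. How reads with several loci were counted is not given, so the order of these neighbours was not settled. With 1 locus per miRNA, miR-31-5p ranked 28. miR-25-3p, the next below, had 4406 reads, and the ratio of 1.04 (0.996 to 1.08) did not separate it from miR-31-5p. miR-31-3p ranked 267, level with miR-98-3p and miR-1294 at 20 reads. Its neighbours, miR-1275 and miR-365b-3p with 21 reads and miR-130a-3p, miR-877-5p and miR-3605-3p with 19, were not distinguishable from it. In the other lines miR-31-5p ranked 524 of 649 in C643 and 735 of 858 in Huh-7.

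The arm ratio was not used to choose the miRNAs and does not depend on any scaling between libraries. In ES-2 the 5p arm gave 99.6% of the 4594 reads of MIR31 (exact 95% interval 99.3 to 99.7), a ratio of 229 to 1 (148 to 375). Of 100 precursors with a single locus for each arm and 100 or more reads over both, 59 had more 5p than 3p reads, and the median ratio was 7.54. MIR31 held place 22 from the 5p end, with 11 precursors without a 3p read counted ahead of it, of which some have limits under its ratio. Its imbalance was thus marked but not the most extreme. By the larger over the smaller arm, 28 of the 100 were counted ahead of MIR31. These include all precursors with an arm at 0, 11 without a 3p read and 4 without a 5p read. Some of those have limits under the ratio of MIR31, so 28 is an upper count. The median of the larger over the smaller arm was 46.8, with precursors that had an arm at 0 included.

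The precursors next to MIR31 in this order were those of let-7e and miR-182 above it and of let-7c and let-7b below it. let-7 miRNAs act as tumor suppressors, and their 5p arm is the working strand. let-7e had a ratio of 290 (199 to 440), miR-182 of 321 (188 to 604), let-7c of 164 (102 to 282) and let-7b of 150 (121 to 187). The intervals of all 4 overlapped that of MIR31, so its place among them was not resolved at this depth.

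**Figure D4:**
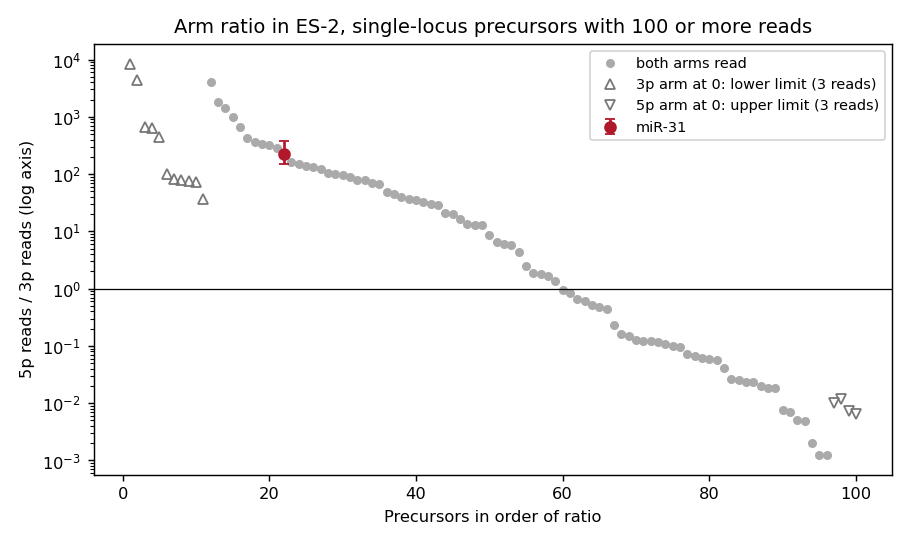
Ratio of 5p to 3p reads in ES-2 (log axis) for 100 single-locus precursors with 100 or more reads, in order of the ratio, with the exact 95% interval for miR-31 (red). Open triangles are limits set with 3 reads where 1 arm had none, the line marks equal arms, and miR-31 lies at place 22 with 229 reads of the 5p arm for each 3p read.

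In C643 and Huh-7 the arm ratio could not be measured. At the proportion seen in ES-2, the 14 reads of miR-31-5p in C643 would be accompanied by 0.0612 reads of miR-31-3p. With 0 of 14 reads from the 3p arm, that arm could still make up 23.2% in C643, and with 0 of 2 reads 84.2% in Huh-7. The zeros of miR-31-3p in these lines therefore say nothing about which arm was kept.

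The miRNAs encoded around MIR31 were examined to see whether they shared its pattern. Within 20 Mb of MIR31 on chromosome 9, the tables list 26 further mature miRNAs that could be placed with RefSeq, from 16 precursors, and 13 of them had 0 reads in every library. 7 had 10 or more reads in at least 1 library. Leaving out miR-101-3p, which has a second locus on another chromosome, these neighbours summed to 43.9 RPM in ES-2, 49.0 in C643 and 39.1 in Huh-7. The sums were made up of different miRNAs, with miR-3152-5p giving most of the reads in C643 and ES-2 and miR-4473 most in Huh-7.

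MIR491, the nearest listed precursor, lies 0.796 Mb from MIR31 on the side away from CDKN2A, inside the protein-coding gene FOCAD. miR-491-5p had 8 reads in ES-2, 16 in C643 and 16 in Huh-7, and miR-491-3p had 3, 15 and 5 in the same order. Together they reached 6.61 RPM in ES-2 (95% CI 3.69 to 11.8), 3.79 in C643 (2.67 to 5.38) and 9.66 in Huh-7 (6.32 to 14.8). MIR491 was thus read at a low level in every line, with Huh-7 above C643 and ES-2 not separated from either. Counted against it within the same library, MIR31 had 418 times its reads in ES-2 (exact 95% interval 233 to 837), 0.452 times in C643 (0.222 to 0.874) and 0.0952 times in Huh-7 (0.0108 to 0.39). In C643 and Huh-7 the weak neighbour gave more reads than MIR31. The reads of MIR31 in these ratios are those that it was selected on, so the ratios are a description only.

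The mature arms of MIR491 are shown because they are the closest measured products to MIR31, with the seed in capitals. They share no seed with miR-31-5p or with each other. The 5p arm lies at chr9:20716120-20716141 and the 3p arm at chr9:20716154-20716175, both on the plus strand (GRCh38.p14).
miR-491-5p: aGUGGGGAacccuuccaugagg
miR-491-3p: cUUAUGCAagauucccuucuac

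Other neighbours differed between the lines in ways unlike miR-31. miR-3152-5p, encoded in ADAMTSL1 at 2.94 Mb, had 51 reads in ES-2, 273 in C643 and 0 in Huh-7, or 30.7 RPM in ES-2 (23.3 to 40.3) and 33.4 in C643 (29.6 to 37.6). ES-2 and C643 thus did not differ beyond counting error in miR-3152-5p, while miR-31-5p, selected for its contrast, differed 1607-fold between them. miR-3152-3p from the same hairpin had 4 reads in ES-2, 74 in C643 and 0 in Huh-7. That arm reached 2.41 RPM in ES-2 (0.935 to 6.18) and 9.04 in C643 (7.20 to 11.4), so it was higher in C643. miR-4473, encoded in MLLT3 at 1.10 Mb, gave Huh-7 62 reads, ES-2 1 and C643 0.

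On the far side of CDKN2A, at 7.35 and 7.38 Mb from MIR31, MIR876 and MIR873 were close to silent. miR-876-3p had 3 reads and miR-873-3p 2 reads in ES-2, and both had 0 in C643 and Huh-7. miR-876-5p and miR-873-5p had 0 reads in each library. miR-4665-5p, at 15.5 Mb on the other side, had 15 reads in C643, 1 in ES-2 and none in Huh-7. At the chromosome 9 locus of miR-101-3p, a repressor of the chromatin enzyme EZH2, the tables hold 1227 reads from ES-2, 4327 from C643 and 1435 from Huh-7, though it has 2 loci with the same mature name.

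**Figure D5:**
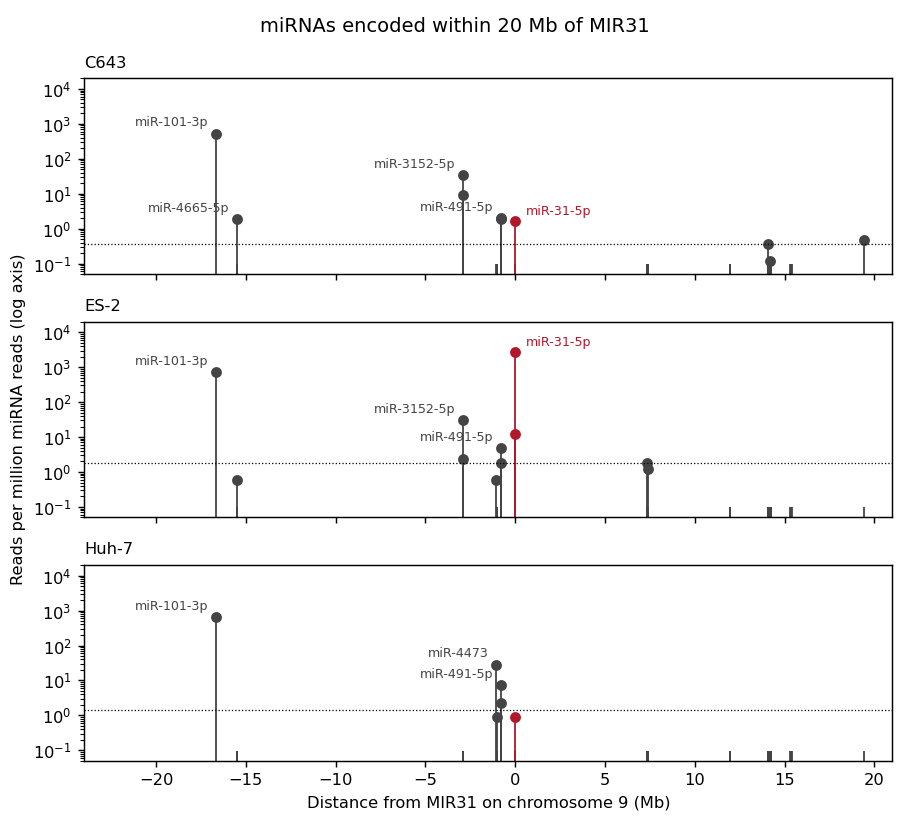
RPM (log axis) of the miRNAs encoded within 20 Mb of MIR31, by signed distance from MIR31 in Mb, with 1 panel per library and both arms of miR-31 in red. Short ticks at the base are miRNAs with 0 reads and the dotted line is the level of 3 reads. miR-31-5p, selected for its contrast, has 1.71 in C643 and 2750 in ES-2, while its neighbour miR-491-5p ranges from 1.96 in C643 to 7.36 in Huh-7.

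Over the whole chromosome, the 124 listed loci took 6.53% of the reads of ES-2, 10.9% of C643 and 3.23% of Huh-7. In ES-2 miR-31-5p ranked 3 among them, after let-7a-5p with 67232 reads and let-7f-5p with 17399 at their chromosome 9 loci, and both arms made up 4.23% of the chromosome's reads. In C643 it ranked 35 and in Huh-7 36.

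The miRNAs most like miR-31-5p were those nearest to it by Euclidean distance of the log2 share over the 3 libraries, with 3 reads as the least count. They were miR-142-3p, miR-142-5p, miR-3689f, miR-138-5p and miR-708-5p, at distances of 3.80 to 5.64. Their sequences are given with the seed in capitals to show that the likeness lies in the counts and not in the seed, since none of the 5 has the seed GGCAAGA.
miR-142-3p: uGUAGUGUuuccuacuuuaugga
miR-142-5p: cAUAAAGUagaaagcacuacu
miR-3689f: uGUGAUAUcgugcuuccuggga
miR-138-5p: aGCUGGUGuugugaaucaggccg
miR-708-5p: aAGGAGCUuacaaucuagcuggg

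None of them came near miR-31-5p in abundance. miR-142-3p, an arm of a precursor known from blood cells, had 542 reads in ES-2 and 0 in C643 and Huh-7. miR-142-5p, the other arm, had 255 reads in ES-2, 3 in C643 and 0 in Huh-7. Of the 5 blood cell miRNAs examined, these arms were the only ones above 3 reads in ES-2, with 798 reads for the list, against 3 in C643 and 1 in Huh-7. miR-451a had 1 read in ES-2, and miR-223-3p and miR-144-3p had 0. Thus 2 of the 5 blood cell miRNAs were higher in ES-2 along with miR-31-5p and 3 were at or near 0, and the part of such cells or their RNA in the level of miR-31-5p was not tested.

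miR-138-5p, encoded at 2 loci, was the one with most reads in C643, 264, against 391 in ES-2 and none in Huh-7. miR-3689f and miR-708-5p had 183 and 126 reads in ES-2, 1 each in C643 and 0 in Huh-7. MIR708 and MIR31 are on different chromosomes, and MIR3689F is on chromosome 9 but on its other arm, far outside the 20 Mb examined.

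For miR-31-3p the nearest were miR-592, miR-378c, miR-6720-3p, miR-4731-5p and miR-1237-3p, at distances of 0.74 to 1.32. All had 0 reads in C643, 9 to 13 in ES-2 and 0 to 6 in Huh-7. At such counts the likeness reflects few reads in ES-2 and fewer elsewhere, and says no more.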

How the data were processed

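The authors deposited 2 tables under the name CPM, one with C643 and one with ES-2 and Huh-7, holding 2813 loci of 2588 mature miRNAs. The deposited values are a signal per locus, reads times a library factor, and the columns sum to 959302, 1154552 and 612015 rather than 1000000. The submitters' processing notes name cutadapt 1.14, Bowtie2 2.3.3, SAMtools 1.5, featureCounts 1.5.3, edgeR 3.18.1 and the build hg38. The miRNA annotation and the handling of reads with several loci are not given in the sources used here, nor is any use of molecular identifiers.

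Dividing a column by its smallest nonzero value gave whole reads (100% of nonzero values within 0.01 reads). Values were summed by miRNA. Shares were given Wilson 95% intervals, and ratios exact binomial ones. Without replicates no test was made between lines. An exact binomial test on reads, with Benjamini-Hochberg adjustment at 0.05, served as an alternative, compares 2 libraries and was tested on simulated data. The design had assumed that CPM could be plain, and C643 was only described beside the other table.

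miR-31 and the lists were chosen with earlier results of these data known. Named miRNAs were both arms, their rank neighbours in ES-2, the 5 nearest by log2 share, those near MIR31 with 10 reads or miR-491, miR-873 and miR-876, those sharing a seed, and the precursors next in arm ratio. miRNAs abundant in ES-2 and low in Huh-7 were named after their values were seen. Muscle and epithelial miRNAs were marker lists too: the 5 epithelial ones (miR-200 family) had 87 reads in ES-2, 102 in C643 and 8306 in Huh-7. Python 3.11.15, pandas 2.3.3 and scipy 1.17.1 were used. Positions are from GENCODE version 29, and 111 of 124 chromosome 9 loci were placed.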

Additional observations from a re-analysis of the deposited data

How the results depend on the processing

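No paired analysis was possible because the 3 libraries come from different lines without replicates, and for that reason none was left out. Of 35 recomputed shares, ranks, folds, log2 differences and arm ratios of miR-31, 20 stayed within counting error (ranks: within 1.5 times), 15 moved further and 0 changed direction. The 0 is no support, since shares and ranks have no direction and the arms were selected for these folds. Depth limits the 5p ratio to Huh-7 and each statement on miR-31-3p, which rests on 20 reads. A floor of 1 read has no effect on the folds of miR-31-5p, which used its reads.

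The ES-2 share of miR-31-5p was 0.318% over 1000000, 0.383% without miR-21-5p and 0.323% with 1 locus per miRNA. miR-31-3p ranked 113 among 3p arms. Its ratio to 3 reads in Huh-7, 16.4-fold on the deposited scale, was 8.71-fold by share. On the deposited scale, setting a zero to 1 read in place of 3 gave ratios of 49.3 against Huh-7 and 118 against C643, which are no bounds. With pseudocounts of 10 and 0.1 the log2 difference of miR-31-5p became 8.24 and 12.23 against Huh-7 and 8.10 and 10.83 against C643, and that of miR-31-3p 1.26 and 7.13 against each. At a pseudocount of 10 miR-31-3p was thus under 4-fold. Without miR-31, chromosome 9 held 6.26% in ES-2. Within 10 Mb 11 neighbours were listed. The larger over the smaller arm, added after the data were seen, put MIR31 at place 29, with all precursors with an arm at 0 counted ahead of it.

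The numbers of miRNAs at least 4-fold higher changed as follows. For ES-2 against Huh-7 (76 and 108), a filter of 100 gave 48 and 42. The read test, which calls by adjusted p with no limit on fold, called 134 and 210. For Huh-7 the number was 60 with a pseudocount of 10, 180 without a filter, 181 by share (65 for ES-2) and 260 in the read test on library totals. For ES-2 against C643 (38 and 54), a pseudocount of 10 gave 24 and 22, a filter of 100 gave 16 and 18, no filter 82 and 123, and 8-fold 18 for ES-2. For C643 against Huh-7 (90 and 100), a filter of 100 gave 54 and 44 and no filter 141 and 173, with 55 for Huh-7 at a pseudocount of 10 and 157 by share (77 for C643). By construction, other filters change which miRNAs are compared.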

Other observations

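miR-3689f belongs to a family on the long arm of chromosome 9 whose members resemble each other closely, so its counts carry a doubt that miR-31 does not. miR-3689a-5p, miR-3689b-5p and miR-3689e have the same mature sequence, shown here because reads of these loci cannot be told apart.
miR-3689a-5p: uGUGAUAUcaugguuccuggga
Their reads in ES-2 were 108, 93 and 90, or 291 in all, and each had 0 in both other lines. miR-3689f shares their seed and had 183 reads in ES-2.

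The precursors next to MIR31 in arm ratio were also read in the other lines. miR-182 had 4176 5p and 13 3p reads in ES-2 and 13772 and 41 in C643. These are ratios of 321 and 336. In Huh-7 it had 24243 and 1, a higher ratio that rests on 1 3p read. For let-7e the ratio was 290 in ES-2, 376 in C643 and 552 in Huh-7, from 27, 316 and 16 3p reads. It was 164 in ES-2 and 192 in C643 for let-7c, and 150 and 116 for let-7b. Both had 0 3p reads in Huh-7. Differences between lines in these ratios were not tested.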
